A study of Mus musculus with 20 samples.

Results

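Genes that mark serotonin and dopamine neurons were followed across mouse brains, namely Tph2, Slc6a4, Fev, Th, Slc6a3, Slc18a2, Ddc and Gch1. They were chosen by name for their roles in transmitter synthesis, vesicle loading, reuptake and cell identity, with earlier results of these data known. All 8 were among the 17211 genes of the expression table. The study asked how chronic intestinal inflammation relates to tryptophan metabolism in the colon and brain. RNA from the brains of 10 C57BL/6 mice and 10 Winnie mice was sequenced, 1 library per mouse (which parts of the brain were taken is not given in the sources used here), with 5 mice labelled female and 5 labelled male in each genotype. Winnie mice carry a missense mutation of Muc2, the gene of the main secreted intestinal mucin, and develop colitis without any added agent; the C57BL/6 mice came from the same colony, and mice of both groups were 14 weeks old. The comparison reported with the study used 8 C57BL/6 and 6 Winnie mice, and because the sample labels do not say which, all 20 brains were used here.

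Serotonin and dopamine are made by small groups of neurons that lie mainly in the brainstem. Serotonin neurons of the raphe nuclei convert tryptophan to serotonin through tryptophan hydroxylase and aromatic amino acid decarboxylase, and take released serotonin back up through a dedicated transporter. Dopamine neurons of the ventral midbrain start from tyrosine, use the same decarboxylase and the same vesicular transporter, and have a transporter of their own. Both hydroxylases need tetrahydrobiopterin, so the enzyme that opens its synthesis serves both cell groups. Most of the transcripts of these genes stay in the cell bodies, whereas the axons reach nearly the whole brain.

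Expression was read as CPM (read counts scaled to the library total), which is the reads of a gene divided by all the gene reads of its library, times 1000000. Libraries held 16540303 to 23923769 gene reads, so that 1 read was worth 0.0418 to 0.0605 CPM and 3 reads at most 0.181 CPM. All 8 general markers of neurons and glia were measured, with Snap25, a synaptic protein of all neurons, between 1919 and 2480 CPM. The labelled sex went against the levels of Xist and Ddx3y in 9 of the 10 C57BL/6 brains and in 0 of the 10 Winnie brains, so values split by labelled sex are given with that limit. Library numbers 1 to 10 were C57BL/6 and 11 to 20 Winnie, so library order and genotype cannot be told apart.

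In the brain, Tph2, Slc6a4 and Fev are the genes most particular to serotonin neurons. The 250 bases upstream of their RefSeq transcription starts are shown because these 3 genes mark the same cells and because Fev is itself a DNA-binding factor of the ETS family, whose members bind around a GGAA core. All 8 genes had an entry in the RefSeq promoter table (build GRCm38.p6). Sequences run 5′ to 3′ toward the gene, and capitals mark GGAA on either strand, so that TTCC in capitals is GGAA on the other strand.
Tph2 (chr10:115185023-115185272, minus strand): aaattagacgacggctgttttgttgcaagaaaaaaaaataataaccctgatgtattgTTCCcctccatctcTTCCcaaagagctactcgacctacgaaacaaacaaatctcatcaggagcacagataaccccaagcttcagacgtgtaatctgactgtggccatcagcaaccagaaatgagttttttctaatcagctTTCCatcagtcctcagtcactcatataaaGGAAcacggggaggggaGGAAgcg
Slc6a4 (chr11:76998347-76998596, plus strand): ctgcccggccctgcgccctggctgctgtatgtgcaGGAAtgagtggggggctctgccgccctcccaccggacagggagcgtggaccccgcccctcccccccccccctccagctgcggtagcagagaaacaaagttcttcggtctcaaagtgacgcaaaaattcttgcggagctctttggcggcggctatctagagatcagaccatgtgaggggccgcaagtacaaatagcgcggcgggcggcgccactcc
Fev (chr1:74885409-74885658, minus strand): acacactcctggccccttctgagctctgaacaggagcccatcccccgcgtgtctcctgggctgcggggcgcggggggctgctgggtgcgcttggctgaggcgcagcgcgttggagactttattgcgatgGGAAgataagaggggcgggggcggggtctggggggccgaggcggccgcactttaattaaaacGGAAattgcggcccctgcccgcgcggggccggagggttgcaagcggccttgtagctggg
GGAA was found 5 times upstream of Tph2, 1 time upstream of Slc6a4 and 2 times upstream of Fev, and 93.4% of the 32851 mouse promoter windows of this length hold it at least once. The windows differed in base composition, with 43.6% G or C upstream of Tph2, 64.8% upstream of Slc6a4 and 68% upstream of Fev, against a median of 52.4% over all windows. A match of these letters is a description of the window and not a bound site.

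Tph2 (ENSMUSG00000006764, chr10:115078641-115185022, minus strand, GRCm38) encodes the neuronal tryptophan hydroxylase, the first and rate-limiting enzyme of brain serotonin synthesis. In C57BL/6 brains its lowest, median and highest levels were 0.734, 2.82 and 13.3 CPM. In Winnie brains they were 0.523, 0.727 and 11.2 CPM. The values fell into 2 sets, with 12 brains at or below 1.66 CPM, 8 at or above 3.98 CPM and nothing between. The gap was 1.05 on the scale of log2(CPM + 0.5), just above the limit of 1 that set brains apart. No added value other than 0.5 was tried for this gap. Even the lowest value rested on 10 reads, so Tph2 was detected in all 20 brains. The highest level was 18.1 times the lowest among C57BL/6 brains and 21.5 times the lowest among Winnie brains. In bulk tissue, fewer cells of a type and less RNA per cell cannot be told apart, and this holds for every level given here.

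Slc6a4 (ENSMUSG00000020838, chr11:76998603-77032340, plus strand) encodes the plasma membrane serotonin transporter and overlaps the annotated gene Gm12343. It was listed at 0 in C57BL/6 replicate 4 and reached 12.4 CPM in C57BL/6 replicate 2, with a genotype median of 2.18 CPM. In Winnie brains it ran from 0.053 CPM, which was 1 read, to 10.2 CPM, with a median of 0.358 CPM. A break between 0.885 and 3.69 CPM set the same 8 brains apart as for Tph2. These were C57BL/6 replicates 1, 2, 8, 9 and 10 and Winnie replicates 3, 4 and 6. In 7 of the other 12 brains Slc6a4 rested on 3 reads or fewer, so the transporter was at or near the limit of detection there while Tph2 was not.

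Among the 8 brains above the break, the Slc6a4 to Tph2 ratio in CPM stayed between 0.764 and 0.980, with a median of 0.906, although Slc6a4 ranged over 3.36-fold and Tph2 over 3.33-fold. The transporter and the hydroxylase thus kept a nearly fixed proportion among these 8 brains. In the 12 brains below the break the ratio ran from 0 to 0.819, with a median of 0.174. Those values rested on at most 31 reads of Tph2 and 17 of Slc6a4. Within these 8 brains log2(CPM + 0.5) of the 2 genes had a Pearson r of 0.98 (exact permutation p = 0.0028, 0.0361 after Benjamini-Hochberg adjustment over 13 pairs) and a Spearman rho of 0.98 (exact permutation p = 0.0056, adjusted 0.0662). Without the 2 brains farthest from the median of Tph2, r was 0.79 (exact permutation p = 0.0556). Few arrangements of the brains were left there, so this p does not show whether the call rests on those 2 brains. Within the 12 brains below the break r was 0.78 (permutation p = 0.0108, adjusted 0.141; rho 0.64, p = 0.0355, adjusted 0.134), and without the 2 farthest brains it was 0.64. Because the brains fall into separate clusters, no Pearson r over all 20 is given for these 2 genes. Their rho over all 20 appears below only as a description.

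**Figure D1:**
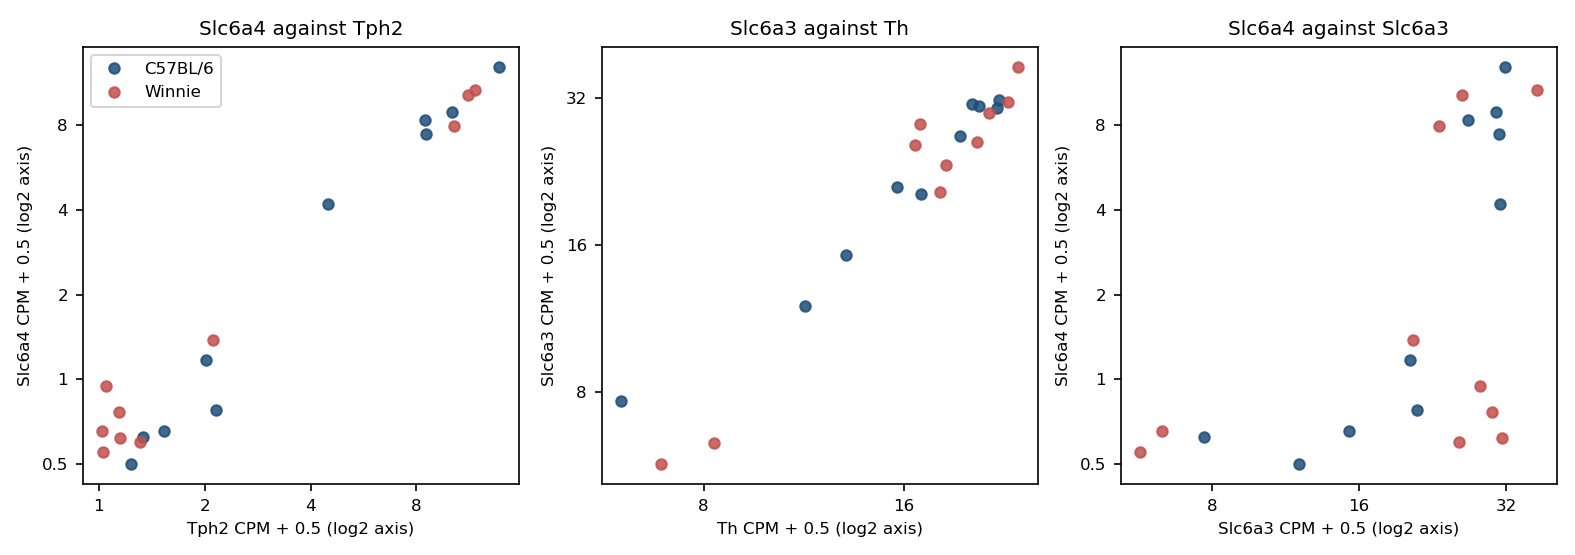
Each point is 1 brain, with CPM + 0.5 on log2 axes, for Slc6a4 against Tph2 (left), Slc6a3 against Th (middle) and Slc6a4 against Slc6a3 (right), C57BL/6 in blue and Winnie in red. On the left, 8 brains at 3.98 CPM of Tph2 or more stand apart from 12 at 1.66 CPM or less; on the right, 6 brains combine Slc6a3 of at least 20 CPM with Slc6a4 under 1 CPM.

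Fev (ENSMUSG00000055197, chr1:74881509-74885419, minus strand), also called Pet-1, is the transcription factor that sets and maintains serotonin neuron identity. It had the lowest median CPM of the 8 genes. In C57BL/6 brains it ranged from 0 to 1.99 CPM with a median of 0.204 CPM, and in Winnie brains from 0.054 to 1.56 CPM with a median of 0.209 CPM. No break set brains apart, but 7 of the 8 brains that were high in Tph2 and Slc6a4 were also among the 8 highest in Fev. In those brains the Fev to Tph2 ratio ran from 0.0301 in C57BL/6 replicate 8 to 0.159 in C57BL/6 replicate 10, a wider range than that of the transporter, on 4 to 39 Fev reads.

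Th (ENSMUSG00000000214, chr7:142892752-142931128, minus strand) encodes tyrosine hydroxylase, the rate-limiting enzyme of dopamine and noradrenaline synthesis. The window upstream of its start is shown with the cyclic AMP response element TGACGTCA in capitals, an element for which the Th promoter is well known.
Th (chr7:142899996-142900245, minus strand): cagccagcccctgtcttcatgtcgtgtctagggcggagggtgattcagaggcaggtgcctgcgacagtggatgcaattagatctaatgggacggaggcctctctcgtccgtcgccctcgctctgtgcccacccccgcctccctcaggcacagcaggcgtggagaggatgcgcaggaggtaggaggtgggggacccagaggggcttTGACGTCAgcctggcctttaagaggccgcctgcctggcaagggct
This palindrome occurred 1 time there and in 1.55% of all windows, and in none of the windows shown above. Th was far more even than the serotonin genes. It ran from 5.52 to 21.7 CPM with a median of 17.7 CPM in C57BL/6 brains, and from 6.41 to 23.3 CPM with a median of 17.8 CPM in Winnie brains. The 3 lowest brains in Th were C57BL/6 replicate 3 and Winnie replicates 5 and 9.

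Slc6a3 (ENSMUSG00000021609, chr13:73536747-73578672, plus strand) encodes the dopamine transporter, which among these genes is the most particular to midbrain dopamine neurons. In C57BL/6 brains it ran from 7.19 to 31.3 CPM with a median of 23.4 CPM. In Winnie brains it ran from 5.20 to 36.6 CPM with a median of 25.4 CPM. Its 3 lowest brains were the same 3 as for Th. The Slc6a3 to Th ratio over the 20 brains lay between 0.745 and 1.69, with a median of 1.37.

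The dopamine transporter and the serotonin transporter did not always fall together. All 8 brains high in Slc6a4 held at least 22.8 CPM of Slc6a3. In the other direction, 1 C57BL/6 brain and 5 Winnie brains had at least 20 CPM of Slc6a3 but under 1 CPM of Slc6a4, limits chosen after the values were seen. Winnie replicate 10, for example, held 30.9 CPM of Slc6a3 and 0.118 CPM of Slc6a4, whereas C57BL/6 replicate 10 held 30.6 and 3.69 CPM.

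Slc18a2 (ENSMUSG00000025094, chr19:59260896-59296012, plus strand, overlapping Gm29261) encodes the vesicular monoamine transporter that loads both transmitters into vesicles. It ran from 3.39 to 24.3 CPM in C57BL/6 brains and from 3.92 to 23.3 CPM in Winnie brains, with medians of 14.3 and 13.4 CPM. Ddc (ENSMUSG00000020182, chr11:11814101-11898144, minus strand, overlapping 1700042O10Rik) encodes aromatic amino acid decarboxylase, the second step for both transmitters. It ran from 6.77 to 23.2 CPM in C57BL/6 brains and from 8.74 to 28.2 CPM in Winnie brains, with medians of 15.8 and 17.04 CPM. Both genes used by both cell groups thus varied less than Tph2 and Slc6a4, and Slc18a2 was lowest in the same 3 brains as Th and Slc6a3. The Ddc to Slc18a2 ratio lay between 0.956 and 2.25, with a median of 1.20.

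Gch1 (ENSMUSG00000037580, chr14:47153895-47189413, minus strand, overlapping Gm18811 and Gm49134) encodes GTP cyclohydrolase, the first enzyme of tetrahydrobiopterin synthesis. It ran from 1.36 to 3.04 CPM in C57BL/6 brains and from 1.05 to 3.94 CPM in Winnie brains, with medians of 2.17 and 1.83 CPM. It rested on 20 to 76 reads, and counting error alone accounted for 32.8% of its CPM variance among C57BL/6 brains and 11.8% among Winnie brains. For Tph2 and Slc6a4 counting error accounted for at most 1.27% of the variance in either genotype. Strand was not given in the sources used here, so reads from an overlapping gene cannot be set apart for Slc6a4, Slc18a2, Ddc and Gch1.

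**Figure D2:**
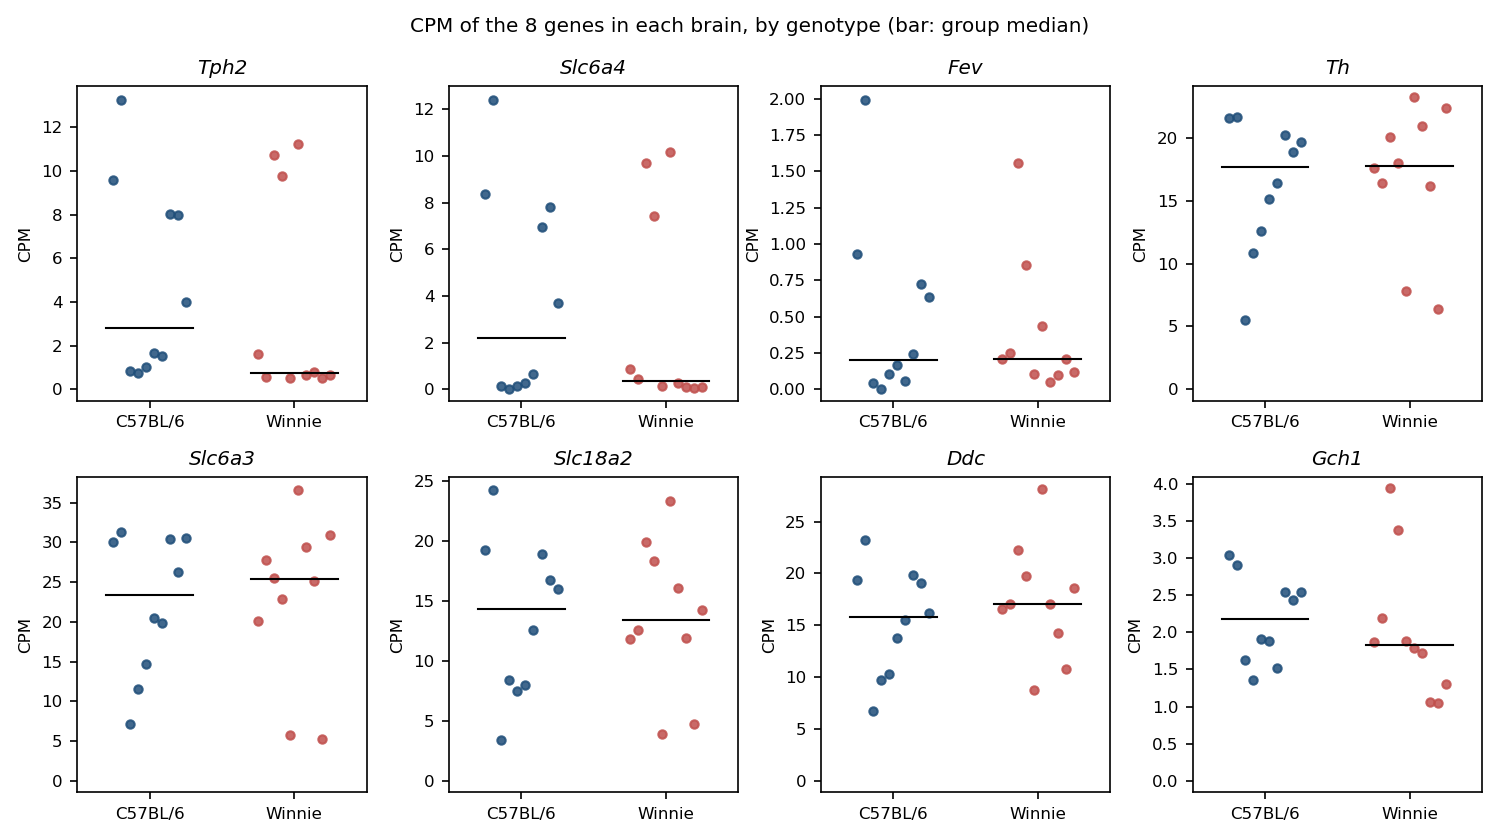
CPM of each of the 8 genes (vertical axis, linear from 0) in the 10 C57BL/6 brains (blue) and 10 Winnie brains (red), 1 point per brain in replicate order and a bar at the group median. Tph2 and Slc6a4 fall into a high and a low set in both genotypes, with 5 C57BL/6 and 3 Winnie brains in the high set, and the ranges of the genotypes overlap for all 8 genes.

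Divided by exon length, the median levels over the 20 brains put the dopamine genes first. Th was at 7.53 and Slc6a3 at 7.34 CPM per kb of exon. Ddc followed at 3.77 and Slc18a2 at 2.57 CPM per kb. Tph2 at 0.544, Gch1 at 0.301, Fev at 0.129 and Slc6a4 at 0.124 CPM per kb came last. The ranges of neighbours in this order overlapped in every case, and Tph2 reached 4.60 CPM per kb and Slc6a4 2.73 CPM per kb in C57BL/6 replicate 2.

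Set against all genes, the spread between brains of the same genotype was large for all 8. This ranking is a description, since the genes were chosen with earlier results of these data known. The within-genotype standard deviation (SD) of log2(CPM + 0.5) was 1.85 for Slc6a4, and 5 of the 17211 genes had a larger one, namely Xist and the Y-linked genes Ddx3y, Eif2s3y, Kdm5d and Uty. Oxt, the gene of the hypothalamic peptide oxytocin, followed at 1.68, and Tph2 was next at 1.46. The SD was 0.83 for Slc6a3, 0.81 for Slc18a2, 0.69 for Fev, 0.60 for Th, 0.51 for Ddc and 0.42 for Gch1. At most 260 genes, the number above Gch1, had a larger SD, which is 1.51% of the table. With a pseudocount of 0.1 in place of 0.5 the corresponding numbers of genes above were 5 for Slc6a4, 10 for Tph2, 699 for Ddc and 800 for Gch1.

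The spread itself was compared between genotypes by the mean absolute deviation of log2(CPM + 0.5) from the group median. It was 1.20 in C57BL/6 and 1.13 in Winnie brains for Tph2, and 1.73 and 1.34 for Slc6a4. The permutation p of the difference was 0.897 for Tph2, 0.506 for Slc6a4 and between 0.403 and 0.955 for all 8 genes, so no difference in spread was detected with 10 brains per genotype.

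The 6 genes without a break were correlated across all 20 brains after each genotype mean was subtracted. All 15 pairs had a Pearson r above 0, from 0.43 to 0.97, and 14 passed after Benjamini-Hochberg adjustment over the 15. The strongest pairs were those of the dopamine neuron and shared monoamine genes. Th and Slc6a3 had an r of 0.97 and a rho of 0.94, each with a permutation p of 1e-05, the smallest that 100000 resamples can give. Without the 2 brains farthest from the median of Th r was 0.97, and it was 0.98 within C57BL/6 and 0.98 within Winnie brains. The 3 lowest brains did not carry the relation alone, since r was 0.93 over the other 17.

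Slc18a2 and Ddc, the shared genes, rose and fell across brains in nearly the same order, with an r of 0.96 and a rho of 0.97 (permutation p = 1e-05 for each). Without the 2 brains farthest from the median of Slc18a2 r was 0.93, it was 0.97 within C57BL/6 and 0.96 within Winnie brains, and it was 0.93 over the 17 brains other than the 3 lowest in Slc6a3. Th paired with Slc18a2 at an r of 0.95 and a rho of 0.90, and with Ddc at an r of 0.92 and a rho of 0.91 (permutation p = 1e-05 for each of the 4). Without the 2 brains farthest from the median of Th these r values were 0.93 and 0.92. Adjusted over the 15 pairs, the p of each of these pairs was 2.14e-05 for r and 3.75e-05 for rho. Over the 17 brains other than the 3 lowest in Slc6a3, r was 0.87 for Th and Slc18a2 and 0.89 for Th and Ddc.

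Outside the pairs among Th, Slc6a3, Slc18a2 and Ddc the strongest pair was Fev and Gch1. It had an r of 0.81 (permutation p = 1e-05, adjusted 2.14e-05) and a rho of 0.76 (permutation p = 0.00023, adjusted 0.000493). Without the 2 farthest brains r was 0.78, within C57BL/6 brains 0.88 and within Winnie brains 0.84. Fev followed the dopamine transporter much less, with an r of 0.44 and a rho of 0.48 (permutation p = 0.0441 and 0.0339, adjusted 0.0472 and 0.0363). That relation was 0.73 within C57BL/6 and 0.21 within Winnie brains, and its p was 0.0594 without the 2 farthest brains, so it did not hold within Winnie brains. Gch1 and Slc6a3 gave the lowest r, 0.43 (permutation p = 0.0754), with 0.81 within C57BL/6 and 0.26 within Winnie brains; the difference between the genotypes was not tested. All 15 pairs were under an unadjusted permutation p of 0.05 within C57BL/6 brains and 7 of 15 within Winnie brains, and the 7 were the pairs among Th, Slc6a3, Slc18a2 and Ddc together with Fev and Gch1. The difference between these counts was not tested, and no share over all gene pairs was computed in either genotype. Within the clusters set by Tph2 and Slc6a4, 1 of 13 pairs passed the adjustment in the 8 high brains, the pair of Tph2 and Slc6a4, and 0 of 13 did in the 12 low brains.

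**Figure D3:**
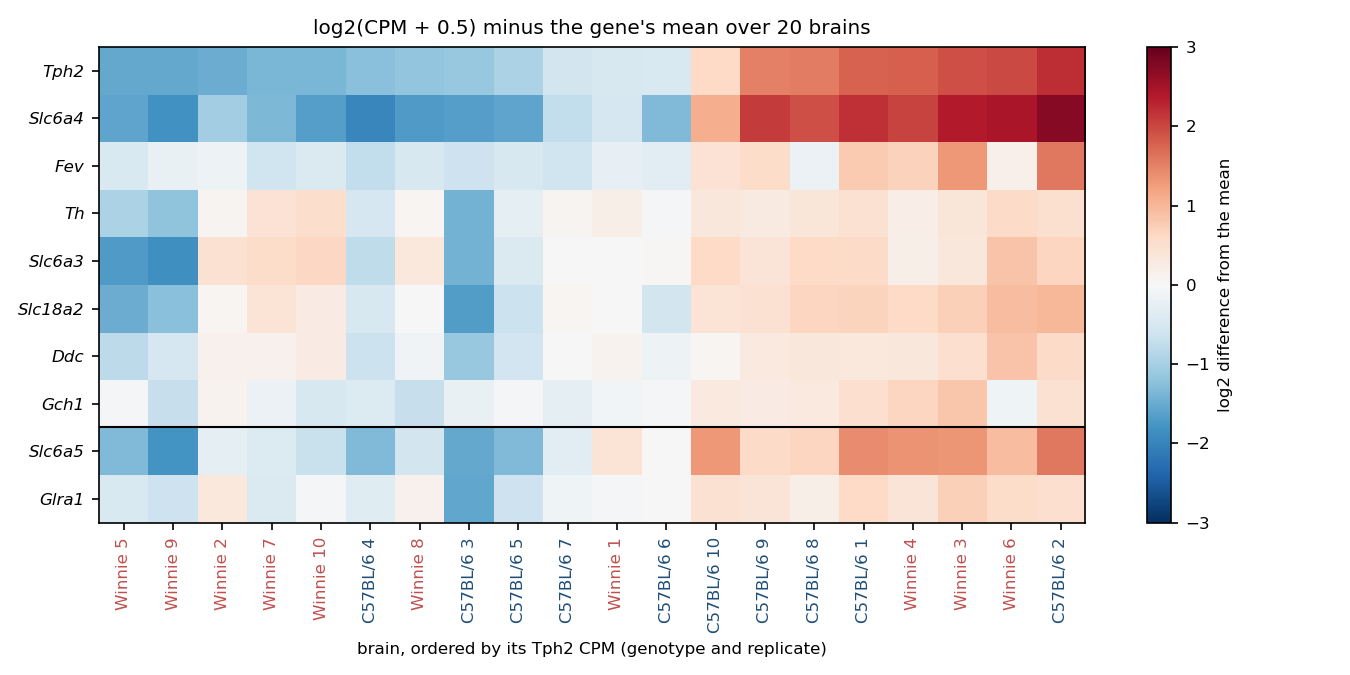
Colour gives log2(CPM + 0.5) minus the mean of the gene over 20 brains, from blue (3 below) to red (3 above), for the 8 genes and, under the line, Slc6a5 and Glra1, with brains ordered from left to right by Tph2 level. The 8 brains on the right are red in Tph2, Slc6a4 and Slc6a5, while low values of Th, Slc6a3 and Slc18a2 are deepest in C57BL/6 replicate 3 and Winnie replicates 5 and 9.

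Genes outside the list that followed Tph2 most closely were ranked by Spearman rho over the 20 brains after subtraction of genotype means, among 15161 genes of at least 1 CPM on average. These rho values describe the same 20 libraries and have no p. The highest were Irx3 at 0.95 and Aldh1a1 at 0.93, then Vamp1, Pax5, Syt2 and Slc6a5 at 0.92, Barhl1 and Kank4 at 0.90, and Spp1 and Vav2 at 0.89. Irx3, Pax5 and Barhl1 are developmental transcription factors, and Slc6a5 is the glycine transporter of inhibitory neurons of the brainstem and spinal cord. Slc6a4 itself had a rho of 0.91 with Tph2, below 6 of these genes. All these values over 20 brains include the step between the high and the low brains. Within the 8 high brains the 10 genes had a rho with Tph2 from 0.36 for Aldh1a1 to 0.71 for Irx3. Within the 12 low brains it ran from 0.58 for Spp1 to 0.94 for Irx3. Slc6a5 had 0.38 in the high and 0.76 in the low brains, and Slc6a4, as given above, 0.98 and 0.64.

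The genes closest to Slc6a3 were others. Chrna6, a nicotinic receptor subunit of dopamine neuron terminals, had a rho of 0.93, and Ret, the receptor for the neurotrophic factor GDNF, had 0.88. Rsrc1 followed at 0.86, Parl, Nrip2 and Ptpru at 0.85, Ppil2 at 0.84, Wdr11 at 0.83, and Lgi3 and Relt at 0.82. Chrna6 kept a rho of 0.93 within the 8 brains high in Tph2 and 0.97 within the other 12. Chrna6 ranged from 1.67 to 7.32 CPM and Ret from 10.8 to 36.8 CPM. Of a list of other dopamine neuron and dopamine handling genes 13 were measured, among them Chrna6, Ret and Aldh1a1. Their mean had a rho of 0.90 with Tph2 and 0.75 with Slc6a3. The mean of 9 other genes of serotonin neurons and serotonin handling had 0.83 and 0.64. The shared genes Ddc and Slc18a2 had 0.89 and 0.88 with Tph2, and 0.83 and 0.82 with Slc6a3.

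Markers of some brain regions moved with Tph2 and Slc6a3 from brain to brain, and those of others did so less. Of 11 listed genes of hindbrain position and glycine neurons 2 were in the table, Slc6a5 and the glycine receptor gene Glra1, and their mean had a rho of 0.93 with Tph2 and 0.64 with Slc6a3. Their summed level ran from 3.34 to 20.8 CPM in C57BL/6 and from 6.46 to 21.8 CPM in Winnie brains. The mean of 8 of 8 listed markers of striatal projection neurons had a rho of -0.62 with Tph2 and -0.70 with Slc6a3, and their summed level ran from 280 to 993 CPM in C57BL/6 and from 256 to 977 CPM in Winnie brains. For the other region lists the rho with Tph2 and with Slc6a3 was 0.35 and 0.42 (cerebellum), -0.32 and -0.52 (olfactory bulb), -0.42 and -0.43 (hypothalamus), and -0.23 and 0.06 (cortex and hippocampus). The part of these markers in the spread of the 8 genes was not tested.

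The genotypes were then compared with limma on log2(CPM + 0.5) over all 17211 genes, where a positive log2 fold change means higher in Winnie brains. None of the 8 genes was called: 0 passed the threshold of the study (a Benjamini-Hochberg false discovery rate, FDR, under 0.001 with a change of 1.5-fold or more), which 0% of all genes passed, 0 were at FDR under 0.05, which 2.52% of all genes reached, and 0 were at an unadjusted p under 0.05, which 17.6% of all genes reached. The edgeR quasi-likelihood test and voom on the recovered reads also called 0 of the 8 at FDR under 0.05, and DESeq2 called 0 of the others besides Fev, for which it gave no adjusted p. The log2 fold change was above 0 in 3 of the 8 and below 0 in 5, and its median was -0.06 over the 8 and 0.00 over all genes.

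The 2 serotonin genes with the widest spread had the largest differences and the widest intervals. For Tph2 the log2 fold change was -0.65 (SE 0.651, 95% interval -2.02 to 0.71, FDR 0.660), and 7 of 10 Winnie brains lay below the C57BL/6 median. For Slc6a4 it was -0.56 (SE 0.825, interval -2.29 to 1.18, FDR 0.783), also with 7 of 10 below. As a ratio of Winnie to C57BL/6 the interval ran from 0.247 to 1.64 for Tph2 and from 0.205 to 2.26 for Slc6a4, so the data do not bound the genotype difference of these genes closely. The high set held 5 C57BL/6 and 3 Winnie brains, and permutation of the genotype labels gave p = 0.317 for Tph2 and 0.532 for Slc6a4.

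The other 6 genes were bounded more tightly. Gch1 had a log2 fold change of -0.14 (SE 0.173, interval -0.50 to 0.22, FDR 0.739). Ddc had 0.18 (SE 0.225, interval -0.29 to 0.66, FDR 0.733), and 7 of 10 Winnie brains lay above the C57BL/6 median. Th had 0.05 (SE 0.267, interval -0.51 to 0.61), Slc18a2 0.03 (SE 0.360, interval -0.72 to 0.79), Slc6a3 -0.04 (SE 0.372, interval -0.82 to 0.74) and Fev -0.09 (SE 0.298, interval -0.71 to 0.54), with FDR from 0.920 to 0.979. The signs of these last 4 were not stable, and each turned when single brains were left out. Without the 3 brains lowest in Slc6a3 its log2 fold change was 0.24 (FDR 0.610), a direction that the choice of brains favours, since 2 of the 3 were Winnie.

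**Figure D4:**
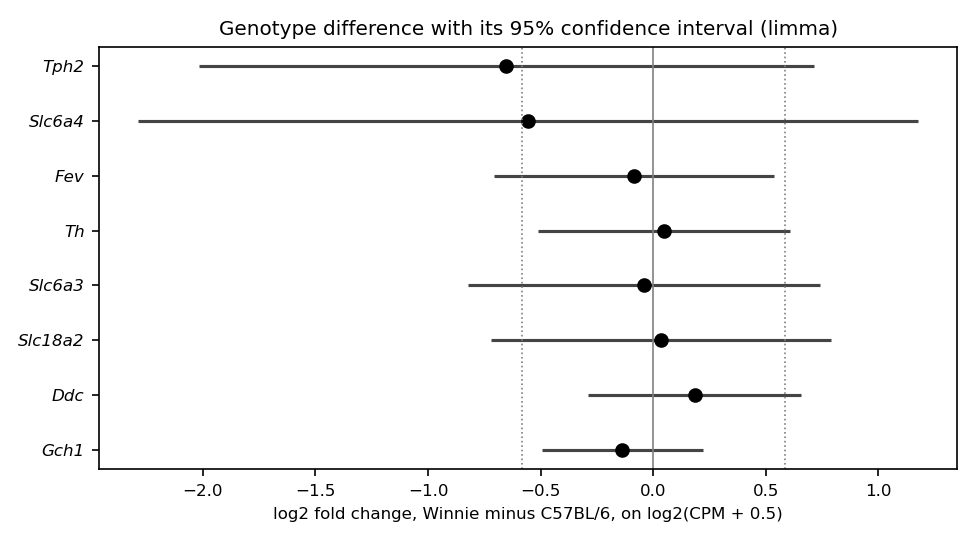
Log2 fold change of each of the 8 genes, Winnie minus C57BL/6, on log2(CPM + 0.5) (point) with its 95% confidence interval from limma (line); dotted lines mark a 1.5-fold difference in either direction. All 8 intervals include 0, from the narrowest for Gch1 (-0.50 to 0.22) to the widest for Slc6a4 (-2.29 to 1.18).

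The genotype difference was also compared between labelled sexes. The interaction passed FDR under 0.05 for 12 genes of the table, none of them among the 8; its lowest unadjusted p among the 8 was 0.0114 for Gch1 (FDR 0.658). Since 9 of the C57BL/6 labels went against Xist and Ddx3y, this comparison is of labels rather than of sexes.

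Other genes of the same pathways were read from the same fit. Of 10 listed genes of serotonin neurons and serotonin handling 9 were in the expression table. The missing gene was Tph1. Every gene of that table had at least 0.5 CPM in 4 or more samples, so absence from it does not mean that Tph1 was not measured. The paper gives Tph1 as upregulated in Winnie brains, and that result could not be examined here. Of the 9, 1 was called at FDR under 0.05, against 2.52% of all genes. That gene was Gata2, a transcription factor required for serotonin neurons of the rostral raphe and also used by GABA neurons of the midbrain and by endothelial cells. Gata2 was at 5.90 ± 1.08 CPM in C57BL/6 and 7.78 ± 0.908 CPM in Winnie brains (SD, n = 10 each), a log2 fold change of 0.38 (SE 0.0870, limma FDR 0.0184), and all 10 Winnie brains lay above the C57BL/6 median. The groups overlapped, with C57BL/6 replicate 1 at 7.70 CPM above Winnie replicate 2 at 5.87 CPM. The call held without each brain in turn (FDR 0.00798 to 0.0454), but not without the 3 brains lowest in Slc6a3 (log2 fold change 0.33, FDR 0.0627). Within the labelled males the log2 fold change was 0.50 (FDR 0.0189), and within the labelled females it was 0.26 (FDR 0.431). By Xist and Ddx3y, these splits compare C57BL/6 brains with Winnie brains mostly of the other sex. Genotype and sex cannot be told apart in them.

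Of the rest of that list, Slc22a3, a low-affinity monoamine transporter, had a log2 fold change of -0.21 (FDR 0.397), Htr5b, a serotonin receptor, 0.15 (FDR 0.482), and Slc17a8, a vesicular glutamate transporter that some serotonin neurons carry, -0.09 (FDR 0.696). The list's median was -0.01. Of 15 listed genes of dopamine neurons and dopamine handling 13 were measured and 0 were called, with 0 at an unadjusted p under 0.05 by limma and a median of 0.01. Among those with the lowest p were En2 (-0.31, FDR 0.623) and Foxa1 (0.10, FDR 0.772), both developmental factors of these neurons, and Drd2 (-0.21, FDR 0.768), the dopamine receptor that also acts as their autoreceptor.

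All 7 listed enzymes of tetrahydrobiopterin synthesis and recycling besides Gch1 were measured, and 0 were called at FDR under 0.05 by limma, with 2 at an unadjusted p under 0.05, which 17.6% of all genes reached. Spr, sepiapterin reductase, which completes the synthesis, was at 19.8 ± 1.81 CPM in C57BL/6 and 17.3 ± 2.11 CPM in Winnie brains (SD, n = 10 each; log2 fold change -0.19, FDR 0.0975). Qdpr, which recycles the spent cofactor, was at 133 ± 12.7 and 118 ± 13.2 CPM (log2 fold change -0.17, FDR 0.123). DESeq2 placed both under an FDR of 0.05, at 0.0350 for Spr and 0.0375 for Qdpr. It called 977 of the 17211 genes at that limit, against 434 by limma. By edgeR the FDR was 0.0700 for Spr and 0.0704 for Qdpr, and voom also called neither at FDR under 0.05. Pts had a log2 fold change of -0.09 (FDR 0.548) and Pcbd2 -0.06 (FDR 0.757).

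Noradrenaline neurons share Th, Ddc and Slc18a2 with dopamine neurons, and 1 of their 5 listed markers was measured, Dbh, which turns dopamine into noradrenaline. It reached 5.29 CPM in C57BL/6 replicate 1 and 2.65 CPM in C57BL/6 replicate 2 and at most 0.933 CPM in the other 18 brains (log2 fold change -0.44, FDR 0.483). Its log2 fold change was -0.21 without C57BL/6 replicate 1 and -1.34 by edgeR on recovered reads (FDR 0.207), so its size depends on that brain and on the test. The region lists held 0 genes at FDR under 0.05. All 7 cerebellar markers had log2 fold changes below 0, with a list median of -0.45 and a summed level of 12.5 to 67.0 CPM in C57BL/6 and 10.7 to 25.6 CPM in Winnie brains. All 8 striatal markers were below 0 as well, with a median of -0.21. The medians were 0.16 for 11 of 12 hypothalamic, -0.04 for 7 of 7 cortical and hippocampal, -0.01 for 4 of 5 olfactory bulb and -0.07 for 8 of 8 general brain markers, against 0.00 over all genes. For the 2 of 11 hindbrain genes in the table the median was -0.05, with Slc6a5 at -0.21 and Glra1 at 0.10. Their part in the genotype values of the 8 genes was not tested.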

How the data were processed

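Brain RNA of 20 mice (10 C57BL/6, 10 Winnie) was sequenced as paired-end reads. The authors ran RNAsik 1.5.4 with featureCounts on GRCm38 and deposited CPM values per gene and sample; the aligner and strandedness are not given in the sources used here. Every deposited gene had at least 0.5 CPM in 4 or more samples, which Fev met in 6 and Slc6a4 in 10. Whole reads were recovered for 100% of values (tolerance 0.001 CPM), and libraries held 16540303 to 23923769 reads; floors in reads cover counting error only, and the limma intervals cover the spread between brains. The main test was limma 3.58.1 (trend, robust) on log2(CPM + 0.5), with fold changes on that scale, which understates the change of low genes. Alternatives were edgeR 4.0.16, DESeq2 1.42.0 and voom on recovered reads; edgeR called 514 genes at FDR under 0.05 against 434 by limma. The fits were tested on simulated data. Those data had less spread than the 8 genes and no clusters of samples, so that test does not cover them. Groups came from the genotype label, and p-values measure the spread between these mice. Permutation tests were two-sided with 100000 resamples, exact for 8 brains. Of the 28 pairs of genes planned, those with Tph2 or Slc6a4 were computed within clusters, because both genes showed a break of at least 1 on the log2 scale. Named were the 8 genes, genes of the lists at FDR under 0.05 or, for the 4 transmitter lists, the 4 with the lowest p (1 of them is not reported here), and the 10 genes most like Tph2 and Slc6a3; a few others outside the rule (Snap25, Oxt, Slc6a5, Glra1 and the Y-linked genes) were named after their values were seen. The genes and lists were chosen with earlier results of these data known. Gene positions are from GENCODE M21, promoters from RefSeq.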

Additional observations from a re-analysis of the deposited data

Results flagged for a closer look

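Fev in C57BL/6 replicate 2 was at 1.99 CPM, on 39 reads, and the next C57BL/6 brain was at 0.931 CPM. The gap to the next brain was large for the range of its 10-brain group. It was the only such value among 16 sets of brains (8 genes in 2 genotypes), of which chance marks about 1 in 20. The same brain was also the highest of the C57BL/6 group in Tph2, Slc6a4, Th, Slc6a3, Slc18a2 and Ddc. Without it, the log2 fold change of Fev was 0.084 (limma FDR 0.903) in place of -0.09.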

How the results depend on the processing

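In all 34 alternatives, 20 of which left out 1 brain, 0 of the 8 genes reached an FDR of 0.05; the lowest was 0.170. Over all genes, the threshold of the study was passed by 0 genes in the main setting, 12 by DESeq2, 2 with the hindbrain markers as a covariate (a covariate of only 2 genes), 7 within labelled males and 0 to 2 when 1 brain was left out. At FDR under 0.05 the count was 434 in the main setting, 977 by DESeq2, 750 with the hindbrain covariate, 6 within labelled females, 61 within labelled males, 169 to 694 when 1 brain was left out, and 240 without the 3 brains lowest in Slc6a3, an alternative chosen after seeing the data. The lowest and highest leave-one-out counts came without C57BL/6 replicates 5 and 10. Within a labelled sex, C57BL/6 brains were set against Winnie brains mostly of the other sex by Xist and Ddx3y. Genotype and sex cannot be told apart in any value within labelled females or males. Sample numbers shared by the genotypes did not pair the brains (2 of 10 pairs correlated above 0.1, from -0.34 to 0.17, and 0 matched their own number best); a replicate block gave 227 genes and changed no call of the 8.

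Some signs turned. Within labelled females the log2 fold change was 0.32 for Slc6a4, 0.12 for Fev, 0.14 for Slc6a3, 0.24 for Gch1 and 0.0045 for Slc22a3; within labelled males it was -0.14 for Th, -0.14 for Slc18a2 and -0.10 for Foxa1. Fev was 0.12 by voom. Slc6a3 was 0.046 by edgeR, 0.039 by DESeq2, 0.0027 with the hindbrain covariate and 0.24 without the 3 lowest brains, which were chosen on Slc6a3 itself. Leaving out 1 brain gave -0.24 to 0.084 for Fev, -0.11 to 0.18 for Th, -0.20 to 0.16 for Slc6a3 and -0.15 to 0.20 for Slc18a2. The sign was kept, but the size moved by over 1.5 times, for Slc6a4 (-0.86 without Winnie replicate 6, -0.28 without C57BL/6 replicate 2), Ddc (0.068 without C57BL/6 replicate 3, 0.28 without Winnie replicate 5) and Gch1 (-0.069 without Winnie replicate 9, -0.24 without Winnie replicate 3); Tph2 ranged from -0.91 to -0.44. Without the 2 farthest brains, r fell to -0.025 for Tph2 and Fev and -0.17 for Tph2 and Gch1 in the low cluster, and to -0.10 for Tph2 and Gch1 and -0.30 for Slc6a4 and Gch1 in the high cluster. The cause of these changes was not tested. A filter on mean CPM of at least 1 removed Fev, and DESeq2 gave it no adjusted p. Counting error took its largest share of the variance in Gch1 (32.8% in C57BL/6 brains); Slc6a4 and Fev rested on 3 reads or fewer in 7 and 9 brains.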
